A study of Arabidopsis thaliana with 8 samples.

Results

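The type-A response regulators of Arabidopsis are a family of 10 genes (*ARR3*, *ARR4*, *ARR5*, *ARR6*, *ARR7*, *ARR8*, *ARR9*, *ARR15*, *ARR16* and *ARR17*), and they were taken from the table of expression values by their locus identifiers. Of these 10 genes 9 had a value, among 23050 loci with a value in all, and 8 passed the minimum for testing. They were compared between rosette leaves of *kaku4* mutant plants aged 6 weeks and those of WT plants of the same age, with 3 RNA-seq libraries per genotype, which the study describes as biological replicates. The mutant is a homozygous T-DNA insertion line in the nuclear lamina gene *KAKU4*, which the labels name kaku4-2, and WT is Col-0, named col in the labels. The labels give no other allele and no treatment. The mutant group rests on a single insertion line with reduced rather than absent *KAKU4* transcript. The *KAKU4* transcript (AT4G31430) had 0.739, 1.26 and 0.943 FPKM in the *kaku4* libraries, against 6.41, 5.45 and 5.71 FPKM in the WT libraries, 16.8% of WT by the means (log2 fold change -2.49, adjusted p = 0.00019 from limma), where FPKM is the fragment number per transcript length and sequenced library. The H3K27me3 ChIP-seq samples of the same series, 1 per genotype, were not analysed here.

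Cytokinin is perceived by histidine kinase receptors, and the signal passes as a phosphoryl group through histidine phosphotransfer proteins to the type-B response regulators, which are transcription factors. Type-B regulators switch on many, though not all, of the type-A genes within minutes of cytokinin treatment. The type-A proteins, which have a receiver domain but no DNA-binding domain, damp the same pathway as negative feedback. Type-A transcripts are therefore widely used as a readout of cytokinin signalling, and in leaves cytokinin is known to delay senescence. By sequence the family falls into pairs of close relatives, which are *ARR3* with *ARR4*, *ARR5* with *ARR6*, *ARR7* with *ARR15*, *ARR8* with *ARR9*, and *ARR16* with *ARR17*. The locus called *ARR8* here (AT2G41310) carries the RefSeq name RR3, whereas *ARR3* is AT1G59940.

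Type-B regulators bind a short core, AGATT. This core and a longer form, searched as AAGATNTT with any base at N, were looked for on both strands. The search covered the 300 bases before the annotated start of each gene (RefSeq annotation and genome, TAIR10.1). Not every sequence that the longer form allows need be a site that these regulators bind. A match of the longer form that reads AAGATTTT also holds the core. The windows of 5 genes are shown 5′ to 3′ on the gene's strand because they belong to the members whose fall was called in every alternative processing (*ARR6*, *ARR7*, *ARR9*, *ARR15*) and to the tested member that was not lower (*ARR8*). Capitals mark the core AGATT or its reverse complement AATCT.
ARR6 (chr5:25254319-25254618, minus strand): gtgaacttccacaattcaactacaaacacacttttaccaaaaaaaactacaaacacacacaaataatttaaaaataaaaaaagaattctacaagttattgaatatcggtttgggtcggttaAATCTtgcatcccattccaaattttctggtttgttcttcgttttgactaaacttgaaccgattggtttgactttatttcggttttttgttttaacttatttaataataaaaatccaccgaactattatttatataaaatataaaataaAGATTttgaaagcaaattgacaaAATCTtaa
ARR7 (chr1:6579315-6579614, minus strand): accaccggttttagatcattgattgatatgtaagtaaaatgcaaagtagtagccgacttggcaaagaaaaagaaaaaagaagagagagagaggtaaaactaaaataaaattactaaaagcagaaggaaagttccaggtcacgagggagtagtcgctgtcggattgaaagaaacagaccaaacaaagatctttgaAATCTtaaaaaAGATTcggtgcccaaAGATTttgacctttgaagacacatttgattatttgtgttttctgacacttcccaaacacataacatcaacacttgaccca
ARR9 (chr3:21108759-21109058, plus strand): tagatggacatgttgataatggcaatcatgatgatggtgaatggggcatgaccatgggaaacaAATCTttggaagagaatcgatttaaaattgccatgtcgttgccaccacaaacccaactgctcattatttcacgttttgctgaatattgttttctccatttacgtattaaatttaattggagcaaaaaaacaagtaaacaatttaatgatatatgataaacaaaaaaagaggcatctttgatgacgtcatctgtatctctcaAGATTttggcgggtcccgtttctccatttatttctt
ARR15 (chr1:28133026-28133325, minus strand): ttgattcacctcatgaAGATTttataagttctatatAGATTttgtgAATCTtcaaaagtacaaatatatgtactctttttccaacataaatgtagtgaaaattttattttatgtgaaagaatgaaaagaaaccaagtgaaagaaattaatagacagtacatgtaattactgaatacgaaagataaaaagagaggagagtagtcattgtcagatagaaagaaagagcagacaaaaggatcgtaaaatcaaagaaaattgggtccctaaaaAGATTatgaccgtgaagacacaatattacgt
ARR8 (chr2:17221540-17221839, plus strand): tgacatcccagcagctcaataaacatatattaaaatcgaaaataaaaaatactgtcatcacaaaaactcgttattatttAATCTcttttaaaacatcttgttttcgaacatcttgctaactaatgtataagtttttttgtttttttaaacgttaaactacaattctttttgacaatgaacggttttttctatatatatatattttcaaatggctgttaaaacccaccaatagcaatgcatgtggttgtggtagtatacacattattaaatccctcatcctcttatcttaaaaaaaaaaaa

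The core occurred 4 times before *ARR15*, 3 times before *ARR6* and *ARR7*, 2 times before *ARR9* and *ARR16*, and 1 time before *ARR8* and *ARR3*. It was not in the windows of *ARR4*, *ARR5* and *ARR17*. Among 27438 windows of this length before protein-coding genes of the nuclear chromosomes, 70.7% held at least 1 core, 35.8% at least 2, 13.8% at least 3 and 4.73% at least 4. The longer form occurred 2 times before *ARR6*, *ARR7* and *ARR8* and 1 time before *ARR9*, *ARR15* and *ARR16*, against 14.3% of all windows with at least 1 match and 1.34% with at least 2. *ARR8*, which was not lower in *kaku4* leaves, had as many matches of the longer form as *ARR6* and *ARR7*, but the matches were not alike. Those before *ARR6*, which began 32 and 10 bases before the start, held the core, as did the *ARR7* match at 81 bases. The *ARR8* matches, at 209 and 194 bases, did not hold the core, nor did the *ARR7* match at 117 bases. The equal counts therefore do not stand for equal sites. In *ARR6* a core on the gene's own strand began 31 bases before the annotated start and another on the opposite strand 8 bases before it. *ARR9* and *ARR15* had a core that began 36 and 31 bases before the start, both on the gene's own strand. A match is a description of these letters and not a measured binding site.

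The libraries differed in scale. Summed FPKM over all loci was 953041 to 1188694 in *kaku4* and 1412227 to 1559944 in WT, and replicate 1 of each genotype held far more chloroplast transcript than the others, 30587 FPKM in *kaku4* and 44363 FPKM in WT against 499 to 945 FPKM. With replicates 2 and 3 only, 5 members were called lower and their median log2 fold change was -1.65. Scaling the libraries to a common sum without organelle genes brought the median log2 fold change of all genes to 0.485, and centring them on their median brought it to -0.194.

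Of the 8 members tested, 6 fell by 1 or more on the log2 scale in *kaku4* leaves with an adjusted p not above 0.05, which were *ARR4*, *ARR5*, *ARR6*, *ARR7*, *ARR9* and *ARR15*. None rose. The same rule called 11.5% of the 20618 genes tested lower and 16.4% higher. The test was limma on log2(FPKM + 0.1), p-values were adjusted by Benjamini-Hochberg across the whole table, and fold changes, or log2 ratios, are *kaku4* over WT on that scale. In these mixtures of leaf cells, fewer cells of a type and less RNA per cell cannot be told apart. At the adjusted p alone, *ARR16* was also lower, which made 7 of 8 members against 28.3% of all genes, and no member was higher, against 28.6%. The median log2 fold change of the 8 members was -1.50, whereas that of all genes tested was 0.0021. For 7 members the *kaku4* libraries all lay below the WT libraries, a separation that 31.3% of all genes showed in the same direction, and *ARR8* was the only tested member whose *kaku4* libraries all lay above WT.

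**Figure D1:**
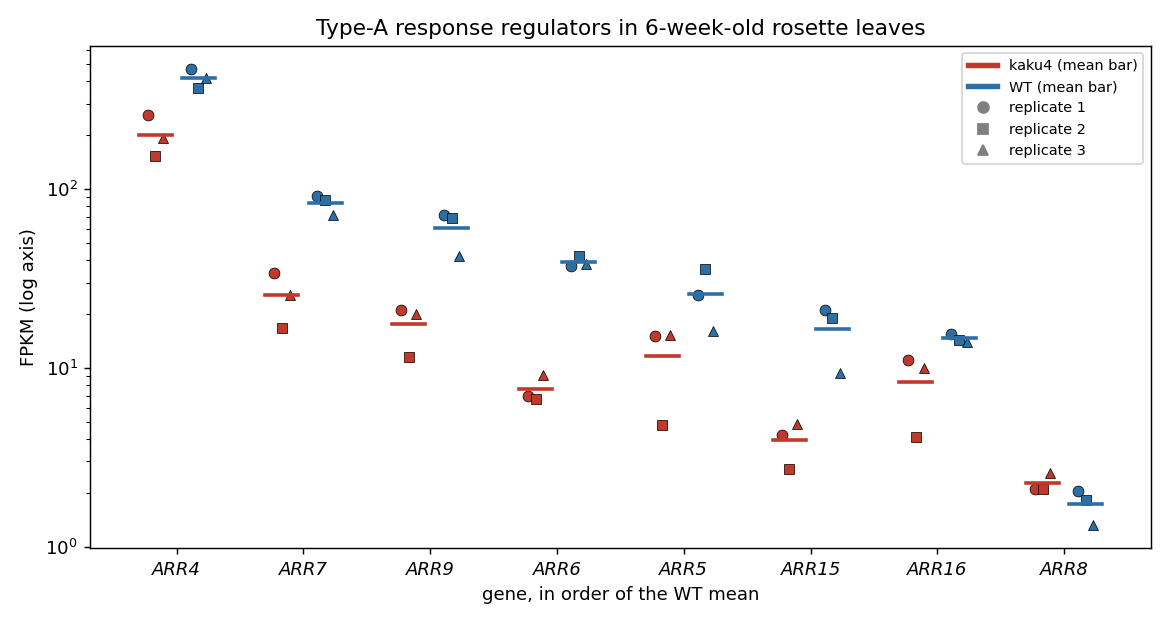
FPKM of the 8 tested type-A response regulators in each library on a log axis, *kaku4* at the left of each pair and WT at the right, with bars at the means of 3 libraries and a marker shape per replicate. For 7 genes all *kaku4* points lie below all WT points, with the means of *ARR6* at 7.58 and 39.1 FPKM, and for *ARR8* they lie above.

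*ARR6* (AT5G62920, chr5:25252007-25254318), a cytokinin-inducible negative regulator, had the largest fall of the family. Its FPKM values were 6.99, 6.68 and 9.08 in the *kaku4* libraries and 37.0, 42.0 and 38.3 in the WT libraries. The lowest WT value was 4.07 times the highest *kaku4* value, the widest gap among the members. Its mean was 7.58 ± 1.31 FPKM in *kaku4* and 39.1 ± 2.60 FPKM in WT (SD, n = 3 each), or 19.4% of WT, with limma giving a log2 ratio of -2.36 ± 0.15 (SE, adjusted p = 4.42e-05). Of all genes tested, 0.553% had a lower log2 fold change. The annotated 3′ end of *ARR6* overlaps a protein-coding gene on the other strand (AT5G62910) by 348 bases, and reads there cannot be told apart if strand was not used, which the sources used here do not give. That gene had 8.58, 7.04 and 6.18 FPKM in *kaku4* and 11.7, 10.3 and 10.3 FPKM in WT, under every *ARR6* value in WT but above *ARR6* in *kaku4* replicates 1 and 2. *ARR5* (AT3G48100, chr3:17758427-17760950), its closest relative and the gene whose promoter is commonly used in cytokinin reporter lines, had values of 15.1, 4.81 and 15.2 FPKM in *kaku4*, against 25.6, 36.0 and 16.0 FPKM in WT. Here the groups barely separated, the lowest WT value being 1.05 times the highest *kaku4* value. The means of *ARR5* were 11.7 ± 5.98 FPKM in *kaku4* and 25.8 ± 9.98 FPKM in WT (SD, n = 3 each), with limma giving a log2 ratio of -1.23 ± 0.46 (SE, adjusted p = 0.0461). The *ARR5* call was lost without *kaku4* replicate 2 (log2 fold change -0.69), *kaku4* replicate 3 (-1.51, adjusted p = 0.0507 from limma), WT replicate 1 (-1.20) or WT replicate 2 (-0.96), and it held in only 7 of the 21 alternatives run, with a negative value in all 21.

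*ARR7* and *ARR15*, which are among the type-A genes that the stem cell factor WUSCHEL is known to repress in the shoot meristem, both fell. *ARR7* (AT1G19050, chr1:6577833-6579314) had values of 34.1, 16.7 and 25.5 FPKM in *kaku4* libraries, against 92.1, 86.9 and 71.3 FPKM in WT libraries. Every WT library was at least 2.09 times as high as every *kaku4* library. The mean of *ARR7* was 25.4 ± 8.69 FPKM in *kaku4* and 83.4 ± 10.8 FPKM in WT (SD, n = 3 each), or 30.5% of WT, with limma giving a log2 ratio of -1.76 ± 0.24 (SE, adjusted p = 0.000753). *ARR15* (AT1G74890, chr1:28131447-28133025) was expressed at a lower level, with 4.20, 2.72 and 4.89 FPKM in *kaku4*, against 21.1, 19.0 and 9.33 FPKM in WT. WT replicate 3 was well under the other WT libraries for this gene and still 1.91 times the highest *kaku4* value. *ARR15* averaged 3.94 ± 1.10 FPKM in *kaku4* and 16.5 ± 6.27 FPKM in WT (SD, n = 3 each), or 23.9% of WT, with limma giving a log2 ratio of -1.99 ± 0.33 (SE, adjusted p = 0.00148). *ARR7* and *ARR15* were called lower in all 21 alternatives.

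*ARR9* fell, whereas its close relative *ARR8* did not pass the test. *ARR9* (AT3G57040, chr3:21109059-21111567) had values of 21.1, 11.6 and 19.9 FPKM in *kaku4*, against 71.6, 68.8 and 42.3 FPKM in WT, so that the genotypes stayed apart by a factor of 2.01 at their nearest values. It averaged 17.5 ± 5.18 FPKM in *kaku4* and 60.9 ± 16.2 FPKM in WT (SD, n = 3 each), or 28.8% of WT, with limma giving a log2 ratio of -1.80 ± 0.27 (SE, adjusted p = 0.00108), and was called in all 21 alternatives. *ARR8* (AT2G41310, chr2:17221840-17224880) had 2.11, 2.11 and 2.58 FPKM in *kaku4* libraries, against 2.04, 1.83 and 1.32 FPKM in WT libraries. Its mean was 2.27 ± 0.270 FPKM in *kaku4* and 1.73 ± 0.374 FPKM in WT (SD, n = 3 each), with limma giving a log2 ratio of 0.39 ± 0.23 (SE, adjusted p = 0.173), which did not pass the test. All 3 *kaku4* values lay above WT, as they did for 33.5% of all genes. The value depended on the processing, with a log2 fold change of -0.09 after the transcript length trend was removed and of 0.83 (adjusted p = 0.0102 from limma) after the GC trend was removed. *ARR8* and *ARR9* each overlap an annotated long non-coding RNA on the other strand, by 299 and 231 bases.

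*ARR4* (AT1G10470, chr1:3441988-3444360), whose protein binds the photoreceptor phytochrome B, was by far the most abundant member. Its FPKM values were 259, 153 and 193 in *kaku4* and 471, 366 and 418 in WT, with WT replicate 2 at 1.41 times the highest *kaku4* library. Its mean was 202 ± 53.6 FPKM in *kaku4* and 418 ± 52.4 FPKM in WT (SD, n = 3 each), or 48.2% of WT, with limma giving a log2 ratio of -1.08 ± 0.20 (SE, adjusted p = 0.00264), which lay close to the fold change criterion. Without *kaku4* replicate 2 the *ARR4* value was -0.90 and without WT replicate 1 it was -0.99, both under the criterion with adjusted p of 0.00839 and 0.014 from limma. *ARR3* (AT1G59940), the closest relative of *ARR4*, was listed at 0 in all 3 *kaku4* libraries and in WT replicate 1, and at 0.0422 and 0.139 FPKM in the other WT libraries. It was under the minimum for testing, and no fold is given. A listed 0 need not be a low level in this table, since the mesophyll gene *CAB1* was also listed at 0 in 5 of the 6 libraries. The longest stretch that the transcripts of *ARR3* and *ARR4* share without a mismatch is 41 bases.

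*ARR16* (AT2G40670, chr2:16969673-16972113) had 11.1, 4.09 and 9.94 FPKM in *kaku4* and 15.5, 14.4 and 14.0 FPKM in WT. All WT values were above all *kaku4* values, by a factor of 1.26 at the nearest. It averaged 8.38 ± 3.77 FPKM in *kaku4* and 14.6 ± 0.744 FPKM in WT (SD, n = 3 each), or 57.4% of WT, with limma giving a log2 ratio of -0.92 ± 0.33 (SE, adjusted p = 0.0433), lower at the adjusted p but under the fold change criterion. *ARR16* reached that criterion without *kaku4* replicate 1 (-1.18). Without *kaku4* replicate 2 its value was -0.47, and its adjusted p exceeded 0.05 without *kaku4* replicate 3 (0.0533), WT replicate 1 (0.119), WT replicate 2 (0.105) or WT replicate 3 (0.103), all from limma. Transcript levels of *ARR17* (AT3G56380), the relative of *ARR16*, were not analysed here.

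**Figure D2:**
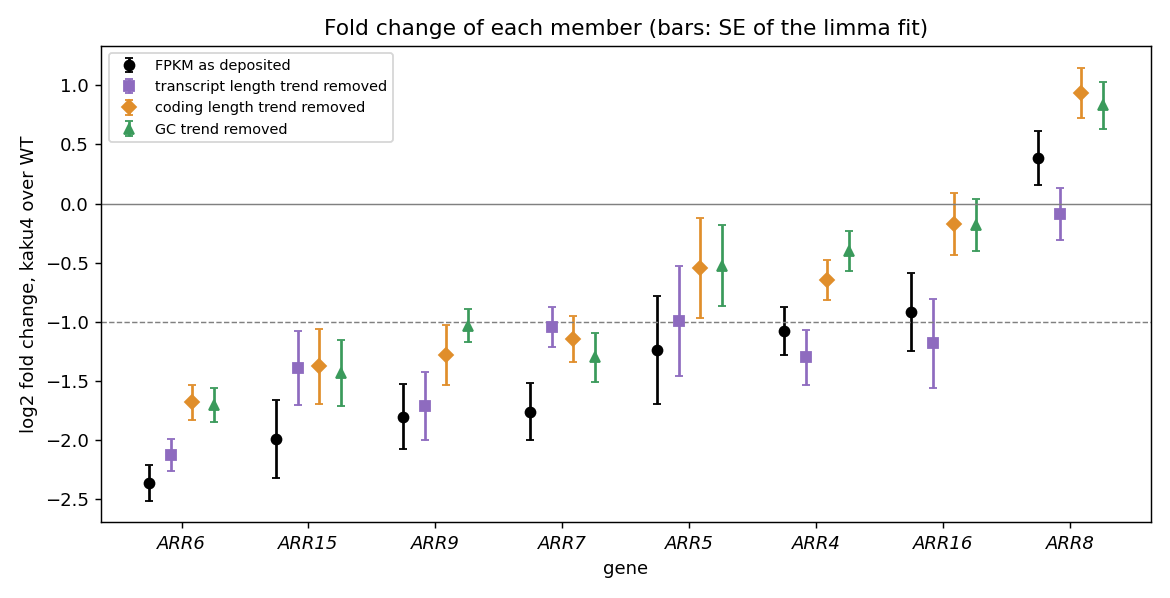
Log2 fold change, *kaku4* over WT, of each tested member (points) with the SE of the limma fit (bars), for the FPKM values as deposited and with a trend on transcript length, coding length or GC content removed from each library; the dashed line marks -1. *ARR6*, *ARR15*, *ARR9* and *ARR7* stay under -1 in all 4 settings, with *ARR6* at -2.36 as deposited, whereas *ARR4*, *ARR5* and *ARR16* cross the line and *ARR8* changes sign.

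The 4 members called in every alternative spanned log2 fold changes of -2.56 to -1.68 for *ARR6*, -2.36 to -1.38 for *ARR15*, -2.04 to -1.03 for *ARR9* and -2.001 to -1.04 for *ARR7*. *ARR4* was called lower in 14 of the 21 alternatives, from -1.30 to -0.40, and *ARR16* in 4, from -1.18 to -0.17. Removing a trend on transcript length left 2677 of all genes called in place of 5751, so the same was done for the members, which had shorter coding sequences and a lower GC content than the median gene. Their transcripts had a median of 1542 bases, against 1688 bases over all genes tested, their coding sequences 621 bases, against 1125 bases, and their GC content 36.5%, against 41.2%. Only 15.7% of all genes had a GC content at or below that of the highest member. With the length trend removed, 6 members were called lower, against 5.21% of all genes, and *ARR16* took the place of *ARR5*. With the GC trend removed, 4 members were called lower, against 9.96% of all genes, and with the trend on coding length removed, 4 members, against 4.51%. The members' median was then -1.24, -0.78 and -0.89 for transcript length, GC content and coding length. Removing a trend also removes true changes that follow it, and how much of the members' fall these trends carry was not tested. Relative to the median of all genes, the type-A median was -1.50 as deposited. Centring the libraries shifts every gene alike and cannot change this difference. Scaling to the common sum (-1.47) can change it only through the added 0.1 FPKM and the minimum for testing. The difference was -1.30 after quantile normalization and -1.23 with the transcript length trend removed. With the coding length trend removed it was -0.88, and with the GC trend removed -0.75. At the common sum 4 members were called lower, against 2.02% of all genes, and *ARR4* was at -0.56, *ARR5* at -0.72 and *ARR16* at -0.41, whereas with centred libraries 7 were called, against 18.7%.

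Since FPKM is scaled by transcript length, levels can also be set beside each other within the family. In WT leaves the order was *ARR4*, *ARR7*, *ARR9*, *ARR6*, *ARR5*, *ARR15*, *ARR16* and *ARR8*, in which the ranges of *ARR7* and *ARR9* overlapped, as did those of *ARR5* and *ARR15* and those of *ARR15* and *ARR16*. The level of *ARR4* in WT was above that of 97.4% of the genes tested, those of *ARR7*, *ARR9* and *ARR6* above 89.3%, 86.2% and 81.3%, and that of *ARR8* above 29.1%. In *kaku4* leaves *ARR4* and *ARR7* still led by their means. There *ARR6*, whose WT values all exceeded those of *ARR5*, stood behind *ARR5* and *ARR16* by the means, with ranges that overlapped between neighbours from *ARR7* down to *ARR6*.

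**Figure D3:**
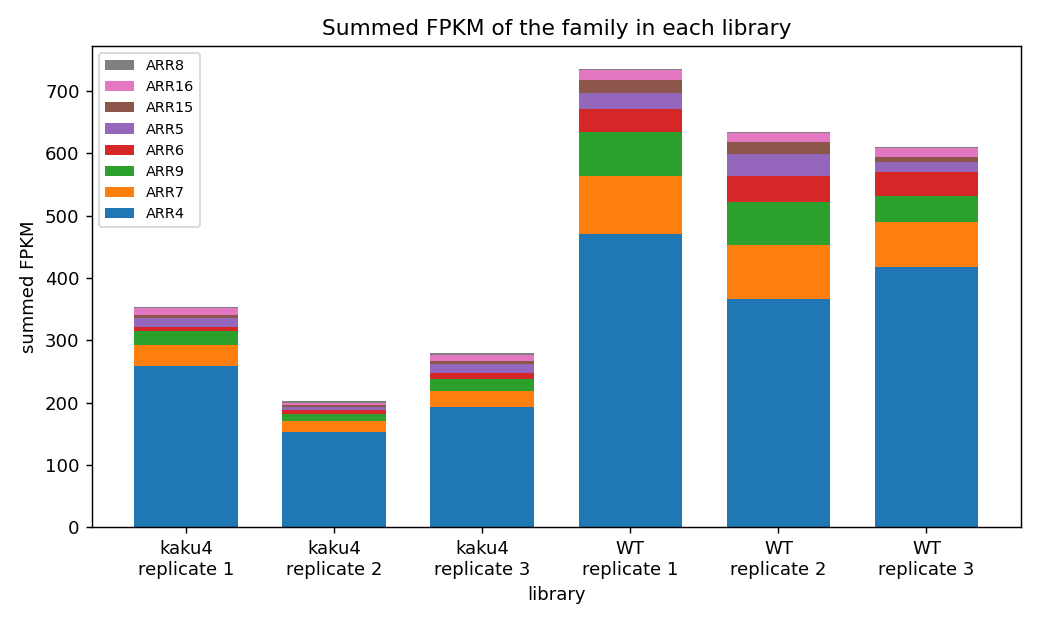
Summed FPKM of the type-A response regulators in each library, *kaku4* at the left and WT at the right, split by gene. The *kaku4* libraries reach 202 to 354 FPKM and the WT libraries 611 to 736 FPKM, and *ARR4* is the largest piece in each.

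The summed FPKM of the family was 354, 202 and 280 in the *kaku4* libraries and 736, 635 and 611 in the WT libraries. This amounted to 279 ± 76.0 FPKM in *kaku4* and 661 ± 66.4 FPKM in WT (SD, n = 3 each), or 42.2% of WT, and without *ARR4* to 76.8 ± 24.6 FPKM in *kaku4* and 242 ± 42.9 FPKM in WT, or 31.7%. All *kaku4* sums lay below all WT sums, and with 3 libraries against 3 an exact permutation test cannot give a two-sided p under 0.1. The family sums are not scaled for the library totals, which were lower in *kaku4* too. Over all loci these totals were 953041 to 1188694 FPKM in *kaku4* and 1412227 to 1559944 FPKM in WT. The median log2(FPKM + 0.1) of the genes tested was instead higher in *kaku4*, at 2.67 to 2.78, against 2.51 to 2.56 in WT. The part of the library scale in the lower percentages was not tested. *ARR4* made up 72.7 ± 3.54% of the sum in *kaku4* and 63.4 ± 5.43% in WT (SD, n = 3 each). The share of *ARR6* was 2.84 ± 0.753% in *kaku4* and 5.97 ± 0.833% in WT, and that of *ARR7* was 9.01 ± 0.680% in *kaku4* and 12.6 ± 1.01% in WT. *ARR8* took 0.854 ± 0.231% in *kaku4* and 0.261 ± 0.0394% in WT. In these shares the library's scale cancels, and for *ARR4*, *ARR6*, *ARR7* and *ARR8* the libraries of the genotypes did not overlap. For *ARR4* they nearly met, at 68.9% in *kaku4* replicate 3 and 68.5% in WT replicate 3. The shares of *ARR5*, *ARR9*, *ARR15* and *ARR16* overlapped. Shares are parts of a whole, so a higher share need not be more transcript.

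The relatives were next compared by the ratio of their FPKM values within each library, for the 3 pairs with both genes tested. The ratio of *ARR9* to *ARR8* was 9.96, 5.49 and 7.73 in *kaku4* libraries, against 35.1, 37.5 and 32.1 in WT libraries. The genotypes did not overlap, with a difference in the log2 ratio of -2.21 and the smallest p that the design allows (exact permutation test, two-sided, p = 0.1, adjusted over the 3 pairs 0.3). The ratio of *ARR6* to *ARR5* was 0.462, 1.39 and 0.598 in *kaku4* and 1.45, 1.17 and 2.39 in WT, where *kaku4* replicate 2 fell among the WT values (exact permutation test, p = 0.2, adjusted 0.3). The ratio of *ARR15* to *ARR7* was 0.123, 0.163 and 0.192 in *kaku4* and 0.229, 0.218 and 0.131 in WT, and these ranges overlapped (exact permutation test, p = 0.5, adjusted 0.5). The transcripts of *ARR8* and *ARR9* share no exact stretch longer than 41 bases, those of *ARR5* and *ARR6* none longer than 20 bases, and those of *ARR7* and *ARR15* none longer than 19 bases.

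**Figure D4:**
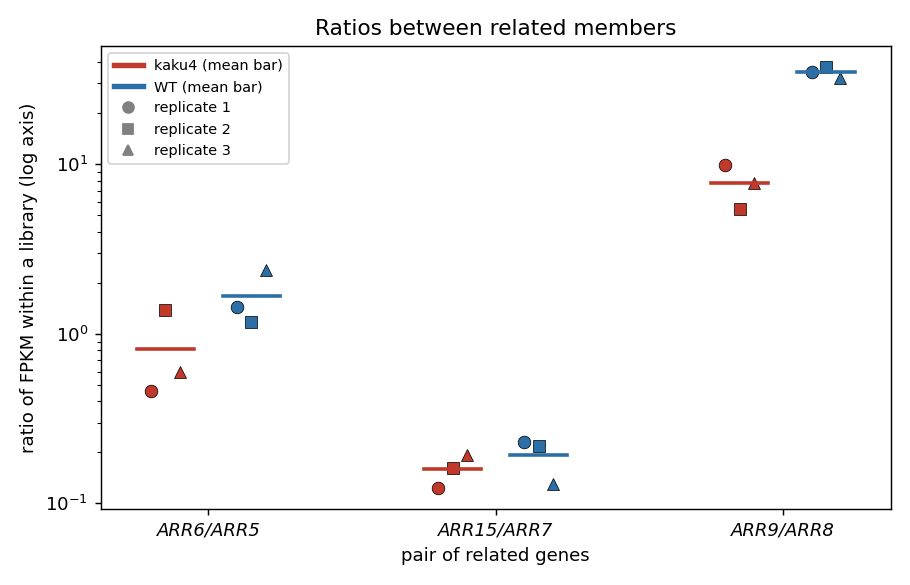
Ratio of the FPKM values of related members within each library on a log axis, *kaku4* at the left of each pair and WT at the right, with bars at the means of 3 libraries. The ratio of *ARR9* to *ARR8* lies between 5.49 and 9.96 in *kaku4* and between 32.1 and 37.5 in WT, while those of the other pairs overlap.

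Within each genotype the low values of the members lay mostly in the same library. *kaku4* replicate 2 held the lowest *kaku4* value of all 8 tested members, as it did for 34.4% of all genes, and WT replicate 3 held the lowest WT value of 6 of the 8, as it did for 27.1% of all genes. Without both of these libraries 4 members were called lower (*ARR6*, *ARR7*, *ARR9* and *ARR15*), the family median was -1.30, *ARR4* was at -0.89 and *ARR5* at -0.995 (adjusted p = 0.0217 from limma). The genes most like the average of the tested members over the 6 libraries were looked for among 16836 genes that averaged 1 FPKM or more, by the root mean square difference of log2 values centred on each gene's mean. They were *RGF9* (AT5G64770), which encodes a peptide of the root meristem growth factor family, with a difference of 0.0408, and the loci AT4G34790 and AT1G26650, with 0.0424 and 0.0528. *RGF9* had 437, 239 and 418 FPKM in *kaku4* and 1061, 1038 and 747 FPKM in WT. Among the members themselves the nearest to their own average were *ARR7* and *ARR9*, with differences of 0.242 and 0.246, and the farthest was *ARR8*, with 0.897.

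The rest of the cytokinin pathway moved in both directions. Over 10 lists with 70 genes, of which 59 had a value and 56 were tested, 7 genes rose and 7 fell, a share near the 27.9% of all genes called in either direction, and the median log2 fold change was -0.25. At the adjusted p alone 11 of the 56 were higher and 15 lower. Among the 3 receptors, *AHK3*, the receptor best known for delaying leaf senescence, had 8.39, 13.8 and 11.0 FPKM in *kaku4* and 4.35, 4.79 and 4.85 FPKM in WT, a log2 fold change of 1.20 (adjusted p = 0.00134 from limma). *AHK2* rose as well, by 1.17, and *AHK4* did not pass the test (0.59, adjusted p = 0.278 from limma). The transcripts of *AHK3* and *AHK2* are 4513 and 4459 bases long, and with the transcript length trend removed *AHK3* was at -0.03 and *AHK2* at -0.04.

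Among the 6 phosphotransfer genes 3 fell, *AHP4* by 1.28, *AHP3* by 1.25 and *AHP2* by 1.12, and the list's median was -0.93. *AHP2* had 77.0, 45.9 and 74.7 FPKM in *kaku4*, against 153, 150 and 119 FPKM in WT. Without *kaku4* replicate 2 it was at -0.88, and with the length trend removed *AHP4*, *AHP3* and *AHP2* were at -0.51, -0.89 and -0.36 and none was called. The type-B transcription factors, which act directly upstream of the type-A genes, had 6 of 11 genes tested, with a median of 0.72. At the adjusted p alone 4 were higher and 1 was lower. The higher ones included *ARR1* (0.75) and *ARR12* (0.69), which are named in view of their values. With the length trend removed these were at 0.09 and 0.27, and neither passed the test. *ARR2*, known together with *AHK3* for its role in leaf longevity, rose to 3.48, 4.71 and 4.40 FPKM in *kaku4*, against 1.35, 1.80 and 1.69 FPKM in WT, a log2 fold change of 1.33 (adjusted p = 0.0011 from limma). *ARR10* rose by 1.32, and with the length trend removed both were under the fold change criterion (0.67 for *ARR2* and 0.98 for *ARR10*). *ARR14* fell, with 4.48, 2.69 and 3.91 FPKM in *kaku4* and 13.2, 9.52 and 6.15 FPKM in WT, a log2 fold change of -1.32 (adjusted p = 0.0056 from limma), which was -0.77 with the GC trend removed. Transcript levels of the 2 type-C regulators on the lists were not analysed here. Of 3 F-box genes tested, whose products target type-B regulators for degradation, *KMD2* rose by 1.29, and the list's median was -0.07.

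**Figure D5:**
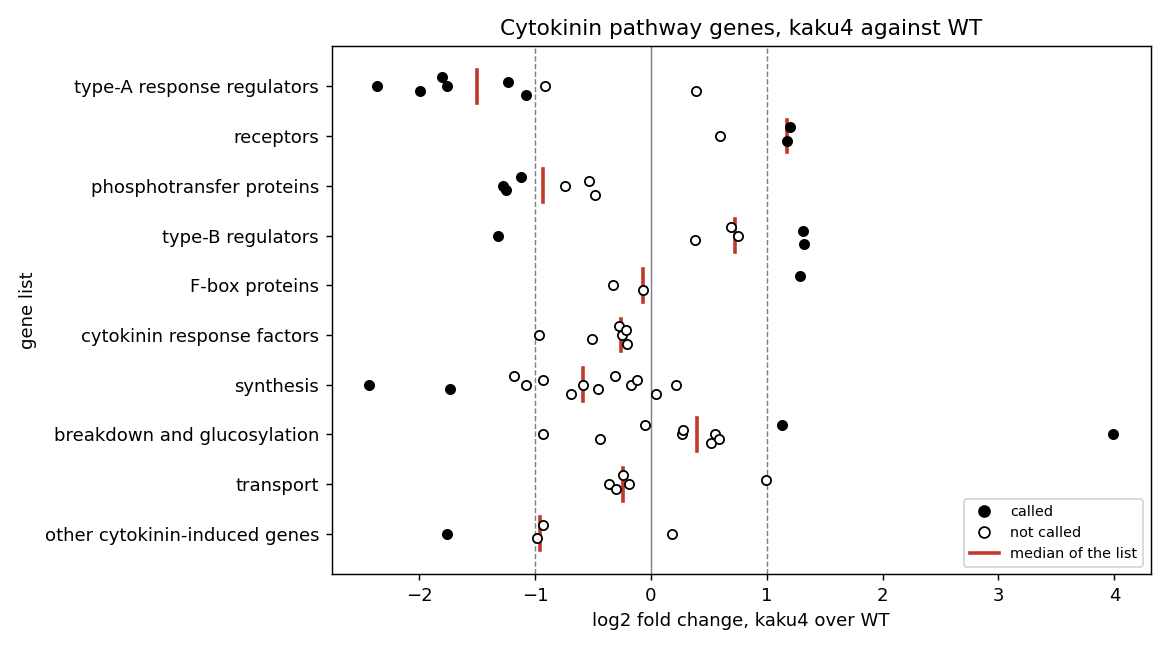
Log2 fold change, *kaku4* over WT, of each tested gene of the type-A family and of the other cytokinin gene lists; filled points passed both the fold change and the adjusted p criterion, and red bars mark list medians. The type-A median lies at -1.50 and the receptor median at 1.17, and the single point near 4 is *CKX2* at 3.99.

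None of the 6 cytokinin response factor genes was called by limma in either direction. At an unadjusted p under 0.05 only *CRF1* was lower (-0.97, adjusted p = 0.0419 from limma), which is named here in view of its values. *CRF6*, the most abundant of them and known to delay leaf senescence, had 38.4, 26.5 and 32.4 FPKM in *kaku4* and 40.1, 34.2 and 42.4 FPKM in WT (log2 fold change -0.27, adjusted p = 0.183 from limma). Among 13 tested genes of cytokinin synthesis 2 fell, both encoding enzymes that release the active base and both low in all libraries, and the list's median was -0.58. *LOG3* had 0, 0.0926 and 0.163 FPKM in *kaku4* and 0.937, 0.619 and 0.970 FPKM in WT, a log2 fold change of -2.43, which was -0.76 with a pseudocount of 1. *LOG4* had 0, 0.280 and 0.0810 FPKM in *kaku4* and 0.260, 0.795 and 0.680 FPKM in WT, so that its ranges overlapped, and its log2 fold change of -1.73 was not called without *kaku4* replicate 1 (-1.27), *kaku4* replicate 3 (-1.70), WT replicate 2 (-1.48) or WT replicate 3 (-1.58). The *LOG4* value was -0.49 with a pseudocount of 1 and -3.05 with 0.01, and was called with neither. At the adjusted p alone, the far more abundant *LOG1* and *LOG8* were also lower and are named in view of their values. *LOG1* averaged 34.3 FPKM in *kaku4* and 64.5 FPKM in WT (-0.93, adjusted p = 0.00374 from limma), and *LOG8* averaged 25.1 FPKM in *kaku4* and 34.6 FPKM in WT (-0.46, adjusted p = 0.0195 from limma). With the GC trend removed they were at -0.15 and 0.17, and neither passed the test.

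Among 10 genes of cytokinin breakdown and glucosylation, with a median of 0.40, *CKX2* and *CKX1*, which encode cytokinin oxidases that degrade the hormone, rose. *CKX2* was listed at 1.91, 2.96 and 3.33 FPKM in *kaku4*, against 0, 0.0469 and 0.257 FPKM in WT, a log2 fold change of 3.99 (adjusted p = 0.000495 from limma) that was called in all 21 alternatives. Because of the low WT values its size follows the pseudocount, and it was 1.75 with a pseudocount of 1 and 5.64 with 0.01. *CKX1* rose by 1.13, from 0.208, 0.290 and 0.508 FPKM in WT to 0.509, 1.25 and 0.842 FPKM in *kaku4*, so that the groups barely separated. It was not called without *kaku4* replicate 2 (0.86), *kaku4* replicate 3 (1.12), WT replicate 1 (0.91) or WT replicate 2 (1.08). The *CKX1* call was also lost with a pseudocount of 1 (0.47), centred libraries (0.94) and the length trend removed (0.64). At the adjusted p alone, *CKX4*, a more abundant oxidase gene, was lower with means of 11.5 FPKM in *kaku4* and 15.5 FPKM in WT (-0.43, adjusted p = 0.0217 from limma). *UGT76C2*, which encodes a cytokinin glucosyltransferase, was lower too (-0.93), and *UGT85A1* was higher (0.52), these 3 genes being named in view of their values. None of the 5 transport genes was called, and at an unadjusted p under 0.05 only *ABCG14* was higher (0.997, adjusted p = 0.0103 from limma), also named in view of its values. *PUP14*, the most abundant of that list, had 54.3, 56.4 and 52.6 FPKM in *kaku4*, against 66.3, 60.7 and 66.6 FPKM in WT (-0.24, adjusted p = 0.0897 from limma).

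Of 4 other genes that cytokinin is known to induce, 1 was called lower, and their median was -0.95. *IAA3*, which encodes an auxin response repressor, had 24.7, 10.7 and 33.2 FPKM in *kaku4* and 82.6, 105 and 39.8 FPKM in WT, a log2 fold change of -1.76 (adjusted p = 0.011 from limma). It was not called without WT replicate 2 (-1.47) or with replicates 2 and 3 only (-1.77, adjusted p = 0.0588 from limma). *GATA21* and *GATA22*, transcription factor genes that promote chloroplast development, were lower at the adjusted p alone, by -0.98 and -0.93, and are named here in view of their values. *LBD3*, the other gene of the list, did not pass the test (0.18).

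The labelled tissue was checked with marker genes of leaf and other cell types. Of the 3 mesophyll markers *RBCS1A* lay between 12434 and 18347 FPKM, *CA1* between 1385 and 2150 FPKM, and *CAB1* was listed at 0 in 5 libraries and at 40368 FPKM in *kaku4* replicate 2, and none of the 3 passed the test. The 3 senescing leaf markers were all higher in *kaku4* at the adjusted p, with sums of 151 to 166 FPKM in *kaku4* and 34.8 to 40.6 FPKM in WT. Of 4 markers of dividing and meristem cells, *STM* was lower with 9.12, 9.35 and 9.90 FPKM in *kaku4*, against 16.4, 16.5 and 16.0 FPKM in WT, while *CYCB1;1* and *CDKB2;1* were higher at the adjusted p, and the list's sums were 13.1 to 16.6 FPKM in *kaku4* and 18.3 to 19.2 FPKM in WT. Floral organ markers were near 0, with sums of 0.667 to 0.902 FPKM in *kaku4* and 2.32 to 3.24 FPKM in WT, and 4 of 5 fell. The sums of the other lists were 108 to 129 FPKM in *kaku4* and 95.0 to 104 FPKM in WT for phloem and vein (1 of 3 higher and 1 lower at the adjusted p), 6.77 to 11.3 FPKM in *kaku4* and 8.43 to 12.1 FPKM in WT for guard cells (1 of 3 lower), and 21.4 to 33.1 FPKM in *kaku4* and 19.5 to 21.8 FPKM in WT for epidermis (1 of 2 higher). The 2 root hair markers did not exceed 0.0948 FPKM. The part of any of these cell types or of leaf age in the fall of the type-A genes was not tested.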

How the data were processed

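RNA from 6-week-old rosette leaves was sequenced in 3 libraries per genotype. The authors aligned reads to TAIR10 with TopHat2 2.0.9, calculated FPKM values with Cufflinks and deposited 1 table of 24492 loci, of which 1442 held no value. Read counts per gene are unknown, so no counting error is given, the paper's DESeq2 test was not repeated, and precision is known only from 3 libraries per genotype. The deposited columns were recorded under a general unit because of the missing values and treated as FPKM. The log2 of FPKM + 0.1 was tested with limma 3.58.1 (mean-variance trend, no covariates) in R 4.3.3, two-sided, for the 20618 genes that averaged 0.1 FPKM or more. The fit was also run on simulated data, in which genes varied independently. Those data held no differences in library scale or GC trends, so the run cannot speak to their effect on the calls. A call needed an absolute log2 fold change not under 1 and a p, adjusted by Benjamini-Hochberg over these genes, not above 0.05. Trends on length or GC content were removed per library with a lowess curve (span 0.4). Gene models, lengths and sequences come from RefSeq TAIR10.1 by locus. In all, 21 alternatives were run, 2 of them (coding length, and leaving out *kaku4* replicate 2 with WT replicate 3) chosen after seeing the data. The members and lists were chosen with earlier results of these data known. The ratios of related members and their permutation tests were added beyond the comparisons set out at the start. Named were all members, *KAKU4*, up to 4 called genes per list or else its most abundant gene, and the 3 genes most like the members. Marker genes, a gene that overlaps *ARR6* and uncalled list genes were named beyond that rule, after their values were seen.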

Additional observations from a re-analysis of the deposited data

How the results depend on the processing

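The count of type-A genes called lower (6) was 4 to 7 over all 21 alternatives, and 4 to 7 when a single library was left out. It was 4 without *kaku4* replicate 2 and without WT replicate 1. At the adjusted p alone (7) it was 5 to 7 with a library left out and 4 with the GC trend removed. The family median (-1.50) was -1.73 to -1.19 with a library left out, -0.78 with the GC trend removed and -0.89 with the coding length trend removed. *ARR8* turned negative after quantile normalization (-0.0069) and with the length trend removed (-0.092, also with the replicate block). With the length trend removed *AHK3* (-0.025) and *AHK2* (-0.043) also turned negative, both with and without the block, as did *AHK2* with the coding length trend removed (-0.056). The 14 called genes of the pathway lists became 8 with a pseudocount of 1, 7 with the length trend removed (also with the block), 9 with the GC trend removed, 8 with the coding length trend removed, and 11 to 19 with a library left out. Over all genes, 5751 calls became 3417 with a pseudocount of 1, 2677 with the length trend removed, 2740 with that and the block, 2322 with the coding length trend removed, and 4264 to 6761 with a library left out, the lowest without *kaku4* replicate 2 and the highest without *kaku4* replicate 1. Of the calls 41.2% were lower as deposited (3380 higher and 2371 lower), 62.6% with centred libraries (2302 higher and 3846 lower) and 6.31% at a common sum (6205 higher and 418 lower). Same-numbered libraries of the genotypes deviated together by a Pearson r of 0.305, 0.0821 and 0.00608 across genes, and the numbers were not read as pairs. A replicate block gave 6 type-A genes called lower, 7 at the adjusted p, 14 pathway calls and 5891 calls in all. The cause of these changes was not tested. Without counts, the number of reads behind members with low values such as *ARR8* is unknown.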
